A study of Homo sapiens with 7 samples.

Results

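BDKRB1 encodes the bradykinin B1 receptor, and its expression is described here across 7 RNA libraries of UM-UC-3, an established line from a human urothelial (bladder) carcinoma. The gene was found by its symbol among 13872 listed genes, and it occupies 1 row (ENSG00000100739, chromosome 14, plus strand). BDKRB2, the gene of the related B2 receptor, is not in the deposited table and was not analysed here. The libraries came from 3 clones (numbers 1, 6 and 10) with high activity of aldehyde dehydrogenase (ALDH) in a cell sort, 3 clones (numbers 1, 3 and 8) with low activity and 1 wild-type UM-UC-3 culture as control. The sort used ALDEFLUOR, a substrate that becomes fluorescent in cells with ALDH activity, and the submitters treat the ALDH-high clones as stem-like cells and the ALDH-low clones as non-stem-like cells. All clones come from 1 line and each gave 1 library, so n = 3 counts clones. No treatment is given in the labels. BDKRB1 was chosen by its CPM values in these same libraries, for their large difference between ALDH-high and ALDH-low clones, so that difference is a description and carries no test.

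Kinins are short peptides that are cut from kininogens by kallikreins in inflamed or injured tissue. The B2 receptor binds bradykinin itself and is present in many tissues, while the B1 receptor binds kinins that have lost their C-terminal arginine to a carboxypeptidase. The B1 receptor is usually scarce in healthy tissue and is induced by injury, interleukin-1 and tumour necrosis factor, in part through the transcription factor NF-kB. Both receptors are G protein-coupled receptors that act through phospholipase C, inositol trisphosphate and the release of stored calcium.

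The region before the start of BDKRB1 is shown beside that of BDKRB2, its close relative on chromosome 14, to give the sequence from which each receptor gene starts. The sequences are RefSeq promoters of build GRCh38.p14, each with 250 bases before the annotated start and 50 bases after it, for BDKRB1 at chr14:96255960-96256259 and for BDKRB2 at chr14:96204589-96204888, both on the plus strand. Capitals mark matches to a motif, and all other bases are in lower case.
BDKRB1: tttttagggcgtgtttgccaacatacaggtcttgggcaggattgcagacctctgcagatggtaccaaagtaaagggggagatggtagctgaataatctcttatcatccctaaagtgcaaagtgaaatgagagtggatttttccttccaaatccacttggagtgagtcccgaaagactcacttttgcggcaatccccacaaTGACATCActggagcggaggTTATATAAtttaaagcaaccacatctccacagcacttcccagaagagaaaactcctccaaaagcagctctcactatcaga
BDKRB2: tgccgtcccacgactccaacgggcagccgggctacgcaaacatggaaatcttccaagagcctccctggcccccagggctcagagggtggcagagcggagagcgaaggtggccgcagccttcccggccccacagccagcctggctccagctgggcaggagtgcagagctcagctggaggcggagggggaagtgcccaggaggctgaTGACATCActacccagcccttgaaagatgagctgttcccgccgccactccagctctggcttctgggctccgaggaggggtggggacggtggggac
Each promoter was searched on both strands for TATANAN (like a TATA box), TGANTCA (AP-1), TGACNTCA (like a cyclic AMP response element) and the NF-kB consensus. These patterns were picked after both sequences had been read. Both promoters hold the same match, TGACATCA, between -50 and -43 from the start in BDKRB1 and between -45 and -38 in BDKRB2. Of 27305 RefSeq promoters of this length, 7.97% hold TGACNTCA. The BDKRB1 promoter also holds TATANAN on both strands in overlapping matches between -30 and -23, and the BDKRB2 promoter does not. This pattern is in 19.7% of the RefSeq promoters and in 9.07% of the 8717 that belong to listed genes. Neither window holds an exact match to TGANTCA or the NF-kB consensus, which are in 7.76% and 5.72% of promoters. Sites that depart from these patterns were not searched for, so this does not show that such sites are absent.

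BDKRB1 was nearly silent in 2 of the 3 ALDH-high clones and clearly present in every ALDH-low clone. Its level was 0.12, 1.4 and 0.12 CPM (counts per 1000000 reads of library size) in ALDH-high clones 1, 6 and 10, against 26.36, 24.87 and 14.72 CPM in the ALDH-low clones 1, 3 and 8, and it was 1.44 CPM in wild type. The groups did not overlap, and the lowest ALDH-low clone was 10.5-fold above the highest ALDH-high clone. The mean was 0.547 ± 0.739 CPM in the ALDH-high clones and 21.98 ± 6.33 CPM in the ALDH-low clones (SD, n = 3 each), a ratio of means of 40.2. On log2(CPM + 1) the difference, ALDH-high minus ALDH-low, was -3.95. Of the 12705 genes tested, 88 (0.693%) were lower in ALDH-high clones at an adjusted p under 0.05 by limma. BDKRB1 is counted in these 88, but that contrast chose the gene, so this is no test of it.

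In RNA from a whole culture, fewer expressing cells and less RNA per cell cannot be told apart. The reads behind these values, whole within the rounding of the table, were 3, 34 and 3 in ALDH-high clones 1, 6 and 10, against 659, 633 and 368 in ALDH-low clones 1, 3 and 8, and 36 in wild type. One read corresponds to about 0.04 CPM in each library. The exact Poisson 95% intervals, which cover counting error only, were 0.0246 to 0.348 CPM in ALDH-high clone 1 and 0.0247 to 0.351 CPM in ALDH-high clone 10. In ALDH-high clone 6 the interval was 0.966 to 1.95 CPM, which lies above both and overlaps that of wild type, 1.01 to 1.99 CPM. The order of the libraries was therefore ALDH-high clones 1 and 10 together, then ALDH-high clone 6 and wild type together, then ALDH-low clone 8, then ALDH-low clones 3 and 1. The interval of ALDH-low clone 8, 13.3 to 16.3 CPM, did not reach those of clone 3 (22.97 to 26.9 CPM) and clone 1 (24.4 to 28.5 CPM), and the intervals of clones 3 and 1 overlapped.

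**Figure D1:**
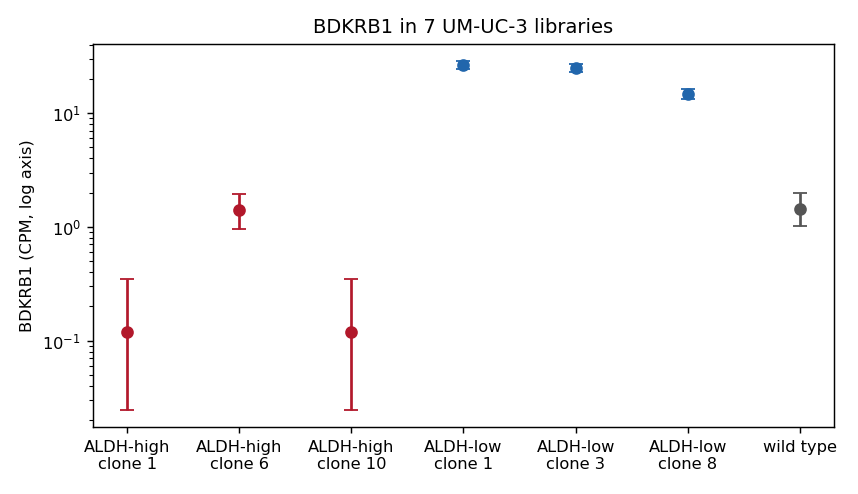
BDKRB1 in CPM on a log axis for each of the 7 libraries, with exact Poisson 95% intervals for counting error as bars. The 3 ALDH-low clones lie between 14.72 and 26.36 CPM, ALDH-high clone 6 and wild type lie at 1.4 and 1.44 CPM, and ALDH-high clones 1 and 10 lie at 0.12 CPM.

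The clones of a group differed from each other far more among ALDH-high than among ALDH-low clones in relative terms. The highest ALDH-high clone was 11.7-fold above the lowest, while the highest ALDH-low clone was 1.79-fold above the lowest. On log2(CPM + 1) the SD was 0.635 in ALDH-high and 0.440 in ALDH-low clones. Without ALDH-high clone 6 the ALDH-high mean was 0.12 CPM. The difference on log2(CPM + 1) stayed between -4.32 and -3.77 when any 1 clone was left out.

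The wild-type culture, which has no replicate and no test, stood nearer to the ALDH-high than to the ALDH-low clones in its BDKRB1 level. The ALDH-low mean was 15.3-fold above wild type. On log2(CPM + 1), wild type was 0.76 above the ALDH-high mean and stood at -3.19 from the ALDH-low mean. On a scale with the ALDH-high mean at 0 and the ALDH-low mean at 1, wild type was at 0.19 for BDKRB1. Over the 88 genes that fell in ALDH-high clones, the median of this position was 0.34 with quartiles of 0.08 and 0.53, and 33 of the 88, BDKRB1 included, were at or under the position of BDKRB1. Wild type lay at or under the highest ALDH-high clone in 29 of the 88 genes, between the groups in 50 and at or above the lowest ALDH-low clone in 9. For BDKRB1 it lay between the groups.

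The sort can be checked on ALDH1A1, an enzyme that oxidises retinaldehyde and is a major source of ALDEFLUOR signal. It averaged 57.3 ± 34.1 CPM in the ALDH-high clones and 0.0267 ± 0.0462 CPM in the ALDH-low clones (SD, n = 3 each). Wild type was at 37.85 CPM, within the range of the ALDH-high clones (33.37 to 96.32 CPM), so only the ALDH-low clones stood apart. The line can be checked on 19 urothelial and epithelial markers, of which 5 were listed. KRT8 and KRT18, keratins of simple epithelium, ranged from 56.16 to 391.35 and from 142.95 to 582.39 CPM over the 7 libraries. KRT7, PPARG and FOXA1 stayed between 0.24 and 7.94 CPM. The other 14, among them the uroplakins, GATA3, KRT5, KRT20, TP63 and CDH1, are not in the deposited table and were not analysed here, so few defining markers of urothelium could be checked.

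Around the receptor, 7 lists with 164 genes covered kinin production, kinin degradation, G protein and calcium signalling, desensitisation, the cytokine and transcription factor routes that induce the receptor, the mediators it releases, and other G protein-coupled receptors. Of these genes 90 were listed and 84 passed the filter on low values (at least 1 CPM in at least 3 clones). In ALDH-high clones 2 of the 84 fell, 0 rose and 82 did not pass, which is 2.38% called against 1.34% of all 12705 tested genes (0.693% lower and 0.645% higher). Unadjusted, 22 of the 84 had a limma p under 0.05, against 2502 of all 12705 tested genes. The unadjusted counts given below for each list stand beside that share, and nothing is read from them. The groups did not overlap in 24 of the 84 (28.6%), 12 lower and 12 higher in ALDH-high clones, against 26.1% of all tested genes. Of the 84, carboxypeptidase M passed the filter only through the 3 ALDH-high clones and RGS4 only through the 3 ALDH-low clones, so these 2 had to differ, and the counts are no support for the lists. The median difference over the 84 was -0.09 on log2(CPM + 1). No tested member differed as much as BDKRB1, the largest size being 2.37. BDKRB1 was chosen for its large difference, so nothing is read from this.

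**Figure D2:**
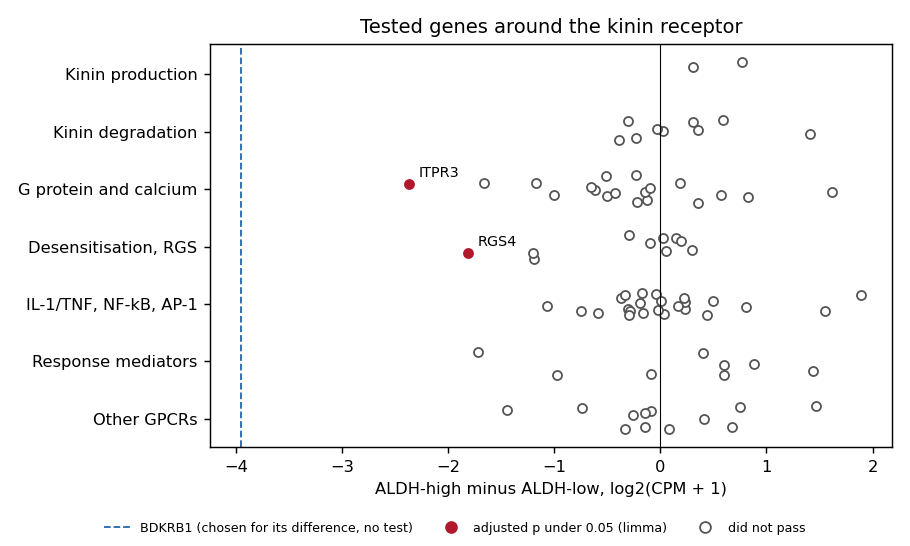
Difference of ALDH-high minus ALDH-low clones on log2(CPM + 1) for the 84 tested genes of the 7 lists, 1 point per gene, with filled points for an adjusted p under 0.05 by limma. ITPR3 at -2.37 and RGS4 at -1.81 are the filled points, and RGS4 passed the filter on low values only through the ALDH-low clones. The dashed line marks BDKRB1 at -3.95, which was chosen for its difference.

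Of 9 genes for kinin production 2 were listed, and limma called 0 of them (1 at an unadjusted p under 0.05, 0 by edgeR). F12 encodes coagulation factor XII, which starts the plasma kallikrein cascade. Its level was 11.09, 9.56 and 8.32 CPM in the ALDH-high clones 1, 6 and 10, against 6.2, 4.87 and 4.68 CPM in the ALDH-low clones 1, 3 and 8. The groups did not overlap, with a difference of 0.77 on log2(CPM + 1) (SE 0.205, limma adjusted p = 0.107). PRCP, a lysosomal carboxypeptidase that can activate plasma prekallikrein, had overlapping groups (limma adjusted p = 0.458) and its highest value, 82.09 CPM, in wild type. KNG1, the kininogen gene, and the kallikrein genes KLKB1 and KLK1 are not in the deposited table and were not analysed here.

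Of 18 genes for kinin degradation and conversion 9 were tested, and limma called 0 (2 at an unadjusted p under 0.05, 0 by edgeR). The 2 are the carboxypeptidases that can remove the C-terminal arginine of kinins and so make B1 receptor ligands. Carboxypeptidase M, a membrane enzyme, had levels of 2.03, 5.42 and 1 CPM (the unit) in the ALDH-high clones 1, 6 and 10, against 0.12, 0.08 and 0.72 CPM in the ALDH-low clones 1, 3 and 8, and 10.11 CPM in wild type. It was higher in every ALDH-high clone than in any ALDH-low clone, the opposite order to BDKRB1, at a difference of 1.41 on log2(CPM + 1) (SE 0.427, limma adjusted p = 0.135). It passed the filter only through the ALDH-high clones, where it is high, so this separation is a description. CPD, the gene of the Golgi enzyme carboxypeptidase D, had 32.03, 31.48 and 30.8 CPM in the ALDH-high clones, against 20.08, 16.26 and 26.32 CPM in the ALDH-low clones (0.59, limma adjusted p = 0.159). Among enzymes that inactivate kinins, MME (neprilysin) lay between 75.07 and 123.6 CPM in the ALDH-high clones and between 88.32 and 161.04 CPM in the ALDH-low clones. XPNPEP1, an aminopeptidase P gene, and THOP1, the thimet oligopeptidase gene, also overlapped, with limma adjusted p of 0.417 and 0.420. ACE, the angiotensin-converting enzyme gene, is not in the deposited table and was not analysed here.

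Of 21 genes for G protein and calcium signalling 19 were tested, of which 1 fell, 0 rose and 18 did not pass (7 at an unadjusted p under 0.05, 1 by edgeR). The gene that fell was ITPR3, an inositol trisphosphate receptor that releases calcium from the endoplasmic reticulum. Its level was 6.24, 20.15 and 10.16 CPM in the ALDH-high clones 1, 6 and 10, against 54.16, 50.36 and 81.88 CPM in the ALDH-low clones 1, 3 and 8, and 8.95 CPM in wild type. As with BDKRB1, the groups did not overlap and ALDH-high clone 6 was the highest of its group. Wild type lay within the range of the ALDH-high clones, while for BDKRB1 it lay just above it. The mean was 12.2 ± 7.17 CPM in ALDH-high and 62.1 ± 17.2 CPM in the ALDH-low clones (SD, n = 3 each), 5.1-fold lower, and the difference was -2.37 on log2(CPM + 1) (SE 0.379, limma adjusted p = 0.0336). Its call was lost without ALDH-high clone 10 or any 1 ALDH-low clone (limma adjusted p up to 0.138).

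PLCB3, a phospholipase C that makes inositol trisphosphate, had 6.8, 18.88 and 13.92 CPM in the ALDH-high clones, against 30.04, 27.46 and 28.84 CPM in the ALDH-low clones, without overlap (-1.17, limma adjusted p = 0.112). GNA12, a G protein alpha subunit, also had no overlap (-1.66, limma adjusted p = 0.151). GNAI1, an inhibitory G protein alpha subunit, stood the other way at 1.62 (limma adjusted p = 0.148), and passed without ALDH-low clone 3 (limma adjusted p = 0.0434). GNAQ and GNA11, the alpha subunits that link kinin receptors to phospholipase C, overlapped between groups. GNAQ was at 3.78, 19.62 and 13.84 CPM in the ALDH-high clones, against 13.96, 16.89 and 18.68 CPM in the ALDH-low clones.

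**Figure D3:**
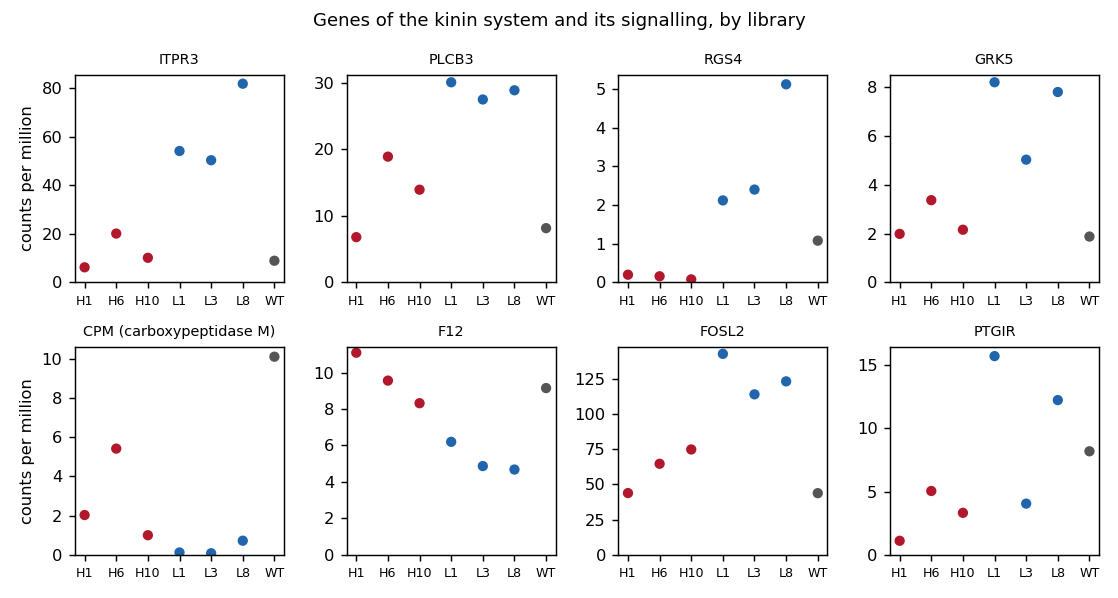
Level in CPM in each library for 8 genes of the lists, with ALDH-high clones (H1, H6, H10), ALDH-low clones (L1, L3, L8) and wild type (WT) from left to right in each panel. ITPR3 and RGS4 are lower in each ALDH-high clone than in any ALDH-low clone, F12 and carboxypeptidase M (symbol CPM) are higher in each, and the PTGIR groups overlap.

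Of 12 genes for desensitisation and regulation of G protein signalling all were listed and 10 were tested, of which 1 fell, 0 rose and 9 did not pass (3 at an unadjusted p under 0.05, 0 by edgeR). RGS4, which speeds the switching-off of G protein alpha subunits, had 0.2, 0.16 and 0.08 CPM in the ALDH-high clones 1, 6 and 10, against 2.12, 2.4 and 5.12 CPM in the ALDH-low clones 1, 3 and 8, and 1.08 CPM in wild type. It fell by 1.81 on log2(CPM + 1) (SE 0.292, limma adjusted p = 0.0339) with means of 0.147 ± 0.0611 CPM in ALDH-high and 3.21 ± 1.66 CPM in the ALDH-low clones (SD, n = 3 each). RGS4 passed the filter on low values only through the ALDH-low clones, where it is high, so its separation and call are a description. The ALDH-high values rest on few reads, and the call was lost without any 1 clone other than ALDH-low clone 3 (limma adjusted p up to 0.142) and by edgeR on 4 clones (adjusted p = 0.0890). GRK5, a kinase that phosphorylates active receptors, was at 2.51 ± 0.752 CPM in ALDH-high and 7.01 ± 1.73 CPM in the ALDH-low clones (limma adjusted p = 0.0707), and RGS3 was at 6.73 ± 2.28 CPM in ALDH-high and 16.6 ± 4.18 CPM in the ALDH-low clones (limma adjusted p = 0.0786; SD, n = 3 each). Both had groups that did not overlap. The beta-arrestin gene ARRB2 lay between 48.12 and 51.02 CPM in the ALDH-high clones and between 41.92 and 45.16 CPM in the ALDH-low clones (limma adjusted p = 0.460).

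Of 27 genes for the inducing cytokines and for NF-kB and AP-1 24 were tested, and limma called 0 (6 at an unadjusted p under 0.05, 0 by edgeR). The cytokine genes IL1A, IL1B and TNF are not in the deposited table and were not analysed here. RELA and NFKB1, the subunits of the main NF-kB dimer, overlapped between groups, as did NFKBIA, the gene of its inhibitor. NFKBIA was at 27.78, 59.43 and 61.52 CPM in the ALDH-high clones, against 65.12, 35.83 and 40.44 CPM in the ALDH-low clones. The AP-1 genes did not share a direction. FOSL2 had 43.79, 64.56 and 74.72 CPM in the ALDH-high clones, against 142.52, 113.8 and 123 CPM in the ALDH-low clones, without overlap (-1.07, limma adjusted p = 0.0577). FOSB had 5.13, 28.32 and 9.72 CPM in the ALDH-high clones, against 2.28, 4.99 and 2.92 CPM in the ALDH-low clones, the opposite order (1.55, limma adjusted p = 0.170). FOS and JUNB differed by 1.90 and 0.81 on log2(CPM + 1) with overlapping groups (limma adjusted p of 0.185 and 0.151).

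Of 21 genes for mediators that kinins release 8 were tested, and limma called 0 (1 at an unadjusted p under 0.05, 0 by edgeR). PTGS2, the inducible cyclooxygenase gene, and IL6 are not in the deposited table and were not analysed here. PTGES3, a prostaglandin E synthase that is also a chaperone partner, had the smallest p and lay at 597 ± 21.0 CPM in ALDH-high and 452 ± 38.4 CPM in the ALDH-low clones (SD, n = 3 each, limma adjusted p = 0.164). The tested chemokine genes varied widely between clones of the same group. CXCL1 had 10.81, 9.19 and 38.28 CPM in the ALDH-high clones, against 150.28, 15.75 and 65.04 CPM in the ALDH-low clones (limma adjusted p = 0.282). IL8, another neutrophil chemokine gene, had 12.95, 12.07 and 51.88 CPM in the ALDH-high clones, against 23.96, 1.37 and 7.24 CPM in the ALDH-low clones (limma adjusted p = 0.395). CXCL2 overlapped as well (limma adjusted p = 0.395).

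Of 56 other G protein-coupled receptor genes for peptides, lipids, nucleotides and amines 16 were listed and 12 were tested, and limma called 0 (2 at an unadjusted p under 0.05, 0 by edgeR). LPAR1, a lysophosphatidic acid receptor gene, had 1.07, 4.43 and 4.92 CPM in the ALDH-high clones, against 0.16, 0.16 and 1.36 CPM in the ALDH-low clones, and 9.27 CPM in wild type (1.46, limma adjusted p = 0.147). PTGIR, the prostacyclin receptor gene, had 1.11, 5.05 and 3.32 CPM in the ALDH-high clones, against 15.72, 4.05 and 12.24 CPM in the ALDH-low clones (-1.45, limma adjusted p = 0.185). The neurotensin receptor gene NTSR1 and the protease-activated receptor gene F2RL1 overlapped (limma adjusted p of 0.288 and 0.316). Under the filter, and named after its values were seen, PTGER2, a prostaglandin E2 receptor gene, had 0, 0.04 and 0 CPM in the ALDH-high clones, against 4.84, 0.2 and 2.4 CPM in the ALDH-low clones, and 0.4 CPM in wild type. The value in ALDH-low clone 3 rests on few reads. LPAR3, LPAR6 and CXCR4 were also under the filter. LPAR3 was lower in each ALDH-high clone, and LPAR6 overlapped. CXCR4 overlapped with its higher values in ALDH-high clones (0.04, 1.56 and 0.44 CPM, against 0, 0.08 and 0.04 CPM).

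No tested neighbour of BDKRB1 on chromosome 14 passed the test. Of the 10 nearest listed genes on each side in the GENCODE order, 16 were tested and limma called 0 (7 at an unadjusted p under 0.05, against 2502 of all 12705, and 0 by edgeR). The groups did not overlap in 8 of the 16, with 7 higher and 1 lower in ALDH-high clones, against 26.1% of all tested genes (1781 higher and 1533 lower of 12705). The median difference was 0.35 on log2(CPM + 1), against 0.00 over all tested genes. SNHG10, a small nucleolar RNA host gene, and SCARNA13, which lies within it, have identical values in all 7 libraries and are counted as 2 genes here. The nearest listed gene before BDKRB1, C14orf132, was the 1 that was lower. It had 0.4, 0.41 and 0.12 CPM in the ALDH-high clones, against 1.92, 3.5 and 1.32 CPM in the ALDH-low clones, and 2.56 CPM in wild type (-1.26, limma adjusted p = 0.0796). It passed the filter only through the ALDH-low clones, where it is high, so this separation is a description. The nearest listed gene after it, the autophagy gene ATG2B, had 13.31, 10.01 and 10.4 CPM in the ALDH-high clones, against 8.68, 6.76 and 6.68 CPM in the ALDH-low clones (0.55, limma adjusted p = 0.196). GSC, a homeobox gene, and VRK1, a nuclear kinase gene, were at 1.32 and 0.74 on the same scale (limma adjusted p of 0.0692 and 0.0812). In the annotation, BDKRB1 overlaps 2 genes that are not listed, a protein-coding gene on its own strand and an antisense RNA. The table marks each gene's strand, and the columns carry the name of CAGEr, a package for tags from the capped ends of transcripts. No source used here says that the libraries were of that kind or that counting was by strand, so reads from these genes may be among those of BDKRB1. No other listed gene shares the 7 values of BDKRB1.

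**Figure D4:**
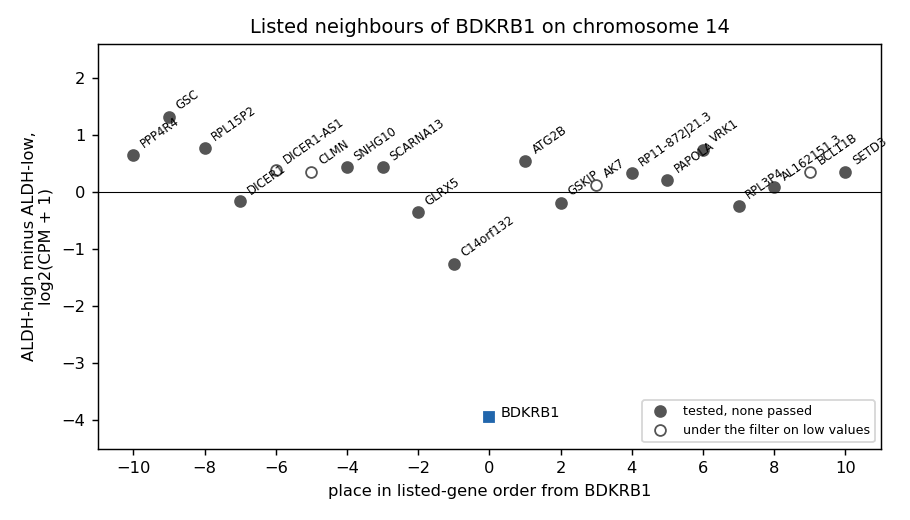
Difference of ALDH-high minus ALDH-low clones on log2(CPM + 1) for the 10 nearest listed genes on each side of BDKRB1, by place in the gene order, with open points for genes under the filter on low values. BDKRB1 is at -3.95 and its neighbours lie between -1.26 and 1.32.

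The 10 tested genes most like BDKRB1 in pattern had a Pearson correlation of at least 0.982 with it on log2(CPM + 1) over the 7 libraries. These libraries are the ones that chose BDKRB1, and any gene that separates the ALDH-low clones from the rest scores high, so the correlations are a description. Of 12704 tested genes, 50 reached 0.95 or more and 68 reached -0.95 or less. AIDA, an axin-binding protein gene, was the most alike (0.997) and had 53.21, 62.38 and 55.16 CPM in the ALDH-high clones 1, 6 and 10, against 88.04, 91.25 and 83.32 CPM in the ALDH-low clones 1, 3 and 8, and 62.59 CPM in wild type. VPS37B, a subunit of the endosomal sorting complex, followed at 0.993, then RP11-527H14.3 and PLP2, a membrane proteolipid gene, at 0.993 and 0.988. SMIM10 came nearest to BDKRB1 in size, with 0.08, 0.66 and 0.32 CPM in the ALDH-high clones, against 9.08, 9.43 and 6.6 CPM in the ALDH-low clones, and 1.68 CPM in wild type. Only the ALDH-low clones, where SMIM10 is high, took it past the filter on low values, so its separation is a description. TMCO3, the iron-regulated aconitase gene ACO1, EPB41L1, TDRD7 and the mannose 6-phosphate receptor gene IGF2R completed the 10. The differences of the 10 genes lay between -2.80 and -0.57 on log2(CPM + 1). All were smaller in size than that of BDKRB1, which was chosen for its large difference.

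The 5 genes with the most opposite pattern were DNAJC24, TCTN2, C12orf45, RANGRF and GRIK2, with correlations between -0.992 and -0.985. GRIK2, a kainate-type glutamate receptor gene, had 20.07, 11.04 and 24.56 CPM in the ALDH-high clones, against 0, 0.04 and 0 CPM in the ALDH-low clones, and 15.79 CPM in wild type. Only the ALDH-high clones, where GRIK2 is high, took it past the filter on low values, so its separation is a description. ALDH-high clone 6, the highest of its group for BDKRB1, was the lowest of its group for GRIK2. The co-chaperone gene DNAJC24 had 46.73, 39.2 and 44.24 CPM in the ALDH-high clones, against 21.76, 22.71 and 26.96 CPM in the ALDH-low clones.

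**Figure D5:**
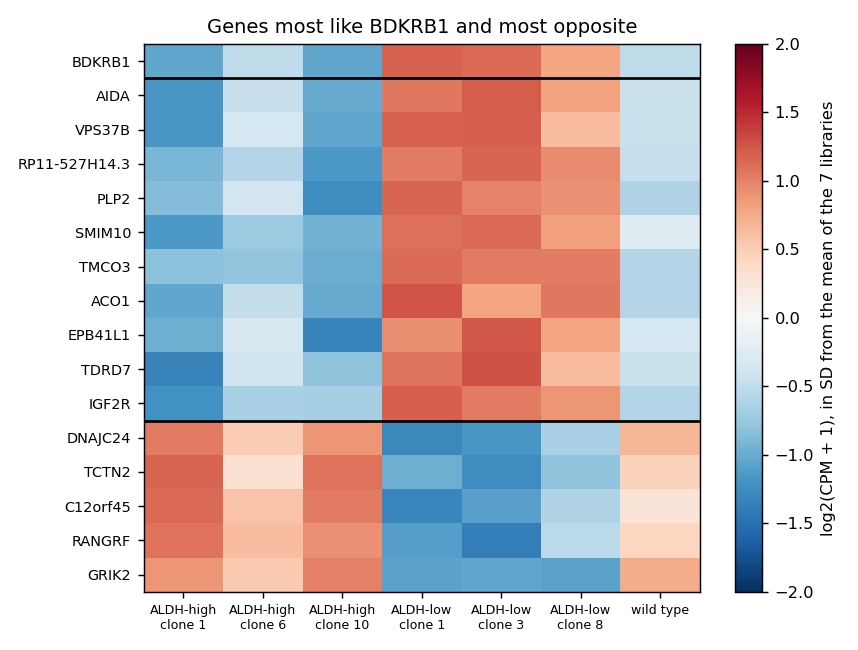
Levels of BDKRB1 (top), the 10 genes most like it and the 5 most opposite genes in the 7 libraries, as log2(CPM + 1) in standard deviations from each gene's mean over the libraries. In BDKRB1 and the genes most like it the 3 ALDH-low clones are high and the other libraries low, and in the 5 opposite genes this is turned round.

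The promoters of the other genes that fell were searched for the same motifs. Of the other 87 genes, 61 matched a RefSeq promoter by symbol. TGACNTCA was in 2 of the 61 (3.28%), against 6.39% of the promoters of listed genes. TATANAN was in 11 of the 61 (18.0%), against 9.07% of those of listed genes. The AP-1 pattern TGANTCA and the NF-kB consensus, with no exact match in the BDKRB1 window, were each in 6 of the 61 (9.84%), against 4.27% and 6.45% of those of listed genes. These shares are a description and were not tested.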

How the data were processed

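RNA from 7 UM-UC-3 cultures was sequenced, and the authors deposited 1 table with a CPM value for each gene and library, given to 2 decimals. The submitters' processing notes give hg19 and mm9 as builds and BWA 0.5.9 as a tool, with no roles. No source used here says how reads were assigned to genes. Each row of the table reaches at least 0.52 CPM in some library.

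The CPM of 1 read was recovered per library, and 100% of values were multiples of it within the rounding (tolerance 0.0051 CPM). With 0.1 read as the tolerance, 78.47 to 99.81% of values above 0 came out whole, and a check of low values passed 5 of the 7 libraries. ALDH-high clone 6 and ALDH-low clone 3 did not pass, so the count test used 4 clones. Recovered reads in listed genes summed to 24177114 to 25664901 per library. Since 1017 genes share all 7 values with another gene, this is not a measure of depth. Simulated libraries were used to test this recovery.

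ALDH-high and ALDH-low clones were compared by limma 3.58.1 (R 4.3.3; lmFit, eBayes with a trend, two-sided) on log2(CPM + 1). The 12705 genes tested reached 1 CPM or more in 3 or more of the 6 clones, with Benjamini-Hochberg adjustment at 0.05. Genes past it are called, and have risen or fallen. The ALDH-low clones alone took BDKRB1 past the filter, and ALDH-high clone 6 also reached 1 CPM. edgeR 4.0.16 (quasi-likelihood test) was run on the recovered reads of ALDH-high clones 1 and 10 and ALDH-low clones 1 and 8 and called 41 genes (0.323%). Each clone gave 1 library, and nothing says that the clones were cultured or prepared more than once. The p-values therefore rest on the spread between libraries of different clones. In that spread, clone, culture, preparation and counting cannot be told apart. BDKRB1 and all lists were chosen with earlier results of these data known. Named genes are list members past the threshold, the 4 with the smallest p in each list, the neighbours, and the genes most like or opposite. Members named beyond these were added as examples after their values were seen. Gene order came from GENCODE 29 (GRCh38), matched by identifier for 96.6% of genes. The order and the chromosome were used, with positions, strands and gene types for the genes that overlap BDKRB1.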

Additional observations from a re-analysis of the deposited data

How the results depend on the processing

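The difference of BDKRB1 on the log scale, -3.95, was -5.68 with a pseudocount of 0.1, -2.26 with a pseudocount of 5 and -7.38 by edgeR on 4 clones, and -4.32 to -3.77 when 1 clone was left out. It kept its direction in every setting. BDKRB1 was chosen for this difference and its groups did not overlap, so the kept direction is a description. The number of genes called, 170, was 86 with a filter at 5 CPM, 41 by edgeR on 4 clones and 34 to 173 with 1 clone left out (57 and 34 without ALDH-high clones 6 and 10, 44 and 37 without ALDH-low clones 1 and 8). The 1 call among desensitisation genes was 0 with a pseudocount of 5, with a filter at 5 CPM and by edgeR, and 0 to 1 with 1 clone left out. Those of G protein and calcium genes and of neighbours were 0 to 1 with 1 clone left out, and the neighbour called was GSC without ALDH-low clone 3. Without ALDH-high clone 1 the differences of GLRX5, DICER1 and AL162151.3, which did not pass, turned sign, with ranges of -0.56 to 0.024, -0.45 to 0.18 and -0.048 to 0.19. Of the 10 genes most like BDKRB1, 5 were shared with a pseudocount of 5, 4 over the 6 clones without wild type and 4 to 8 with 1 clone left out. The cause of these moves was not tested. Over the named genes the settings gave 806 values with the same direction and side of the threshold, 43 that lost their call, 8 that gained one and 3 that turned. edgeR on all 6 clones and DESeq2 were not run, because ALDH-high clone 6 and ALDH-low clone 3 did not pass the check of low values at 0.1 read, although their values are whole within the rounding of the table. No paired analysis was possible because nothing in the labels pairs an ALDH-high clone with an ALDH-low clone. Levels under about 0.12 CPM, or 3 reads, could not be ordered at this depth.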
